A study of Mus musculus with 12 samples.

Results

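A set of 50 genes whose products run mitosis and cytokinesis was followed in mouse liver, out of 55536 genes in the deposited tables. The set was chosen by gene name for its function (mitotic kinases, spindle, kinetochore and cytokinesis proteins), with earlier results of these data known. All 50 names were found, with a value in each of 12 samples. The samples form 3 groups of 4. The shG0s2 group carried an adenovirus with a short hairpin RNA against G0s2, the gene of a lipolysis inhibitor, the shRgs16 group one against Rgs16, the gene of a G protein signalling regulator, and the shLacZ control group one against bacterial lacZ. All 3 groups were wild-type C57BL/6J mice aged 8 weeks that received 0.1 OD of virus through the tail vein and were killed 12 days later at zeitgeber time 12, after 6 h without food. The virus and a hairpin were thus common to all 3 groups, and a liver without virus was not analysed here. RNA came from whole snap-frozen liver, and whether each sample came from its own mouse is not stated, so a p-value here measures only the spread among samples of a group, which may be technical.

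Entry into mitosis is driven by Cdk1 bound to cyclin B, and exit from it by the anaphase-promoting complex, a ubiquitin ligase that Cdc20 directs to cyclin B and securin. Between these steps kinetochores attach chromosomes to the spindle, the spindle checkpoint holds back Cdc20 until attachment is complete, and afterwards a ring of actin and myosin placed by the RhoA activator Ect2 divides the cell. Most hepatocytes of the adult liver are out of the cell cycle, and many are polyploid because cytokinesis failed during postnatal growth. Many genes of this set are transcribed in G2 and mitosis through CHR elements and CCAAT boxes in their promoters, which are bound by the DREAM and B-Myb complexes and by NF-Y.

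Promoters of some of these genes are shown with these elements, from 250 bases before the transcription start to 50 bases after it. The genes were grouped by role, and the promoters were chosen by level. Each is that of the gene with the highest deposited TPM in its role group among genes with a promoter entry, for the groups where that TPM was highest. RefSeq promoters (GRCm38.p6) were matched to 42 of the 50 genes by symbol, and for 4 of them that had 2 entries the first was used. Cdk1 (chr10:69352863-69353162, minus strand), Top2a (chr11:99024140-99024439, minus strand) and Prc1 (chr7:80294201-80294500, plus strand) rose in both knockdowns. Birc5 (chr11:117848987-117849286, plus strand) rose as well. Spc25 (chr2:69206164-69206463, minus strand) rose least among the genes with a CHR element. Pttg1 (chr11:43425932-43426231, minus strand) was the only gene called lower, and that call depended on the scaling of the counts, as given below. Capitals mark the CHR element TTTGAA, the CCAAT box CCAAT and the E2F site letters TTCGCGC or TTGGCGC, each searched on both strands.
Cdk1: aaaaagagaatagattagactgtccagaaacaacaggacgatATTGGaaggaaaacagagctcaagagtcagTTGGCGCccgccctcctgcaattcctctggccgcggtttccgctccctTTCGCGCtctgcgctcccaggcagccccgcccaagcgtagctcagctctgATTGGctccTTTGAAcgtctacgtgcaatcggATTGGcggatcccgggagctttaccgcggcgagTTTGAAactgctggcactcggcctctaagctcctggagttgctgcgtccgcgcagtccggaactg
Top2a: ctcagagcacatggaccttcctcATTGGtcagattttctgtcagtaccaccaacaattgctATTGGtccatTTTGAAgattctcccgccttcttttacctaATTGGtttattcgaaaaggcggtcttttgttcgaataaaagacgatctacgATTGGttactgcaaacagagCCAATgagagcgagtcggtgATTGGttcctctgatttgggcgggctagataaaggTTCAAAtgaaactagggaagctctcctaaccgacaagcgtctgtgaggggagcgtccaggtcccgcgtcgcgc
Prc1: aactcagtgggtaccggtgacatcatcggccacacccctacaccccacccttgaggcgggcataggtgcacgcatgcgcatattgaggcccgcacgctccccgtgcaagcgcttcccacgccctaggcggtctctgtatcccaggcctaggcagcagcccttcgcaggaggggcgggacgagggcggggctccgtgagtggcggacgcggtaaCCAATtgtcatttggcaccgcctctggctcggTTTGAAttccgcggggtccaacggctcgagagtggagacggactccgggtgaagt
Birc5: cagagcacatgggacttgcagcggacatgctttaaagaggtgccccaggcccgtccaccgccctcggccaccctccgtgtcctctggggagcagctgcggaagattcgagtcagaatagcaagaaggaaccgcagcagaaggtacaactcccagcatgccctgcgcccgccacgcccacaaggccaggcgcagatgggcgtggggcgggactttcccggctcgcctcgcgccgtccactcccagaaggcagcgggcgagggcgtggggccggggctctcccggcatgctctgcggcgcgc
Spc25: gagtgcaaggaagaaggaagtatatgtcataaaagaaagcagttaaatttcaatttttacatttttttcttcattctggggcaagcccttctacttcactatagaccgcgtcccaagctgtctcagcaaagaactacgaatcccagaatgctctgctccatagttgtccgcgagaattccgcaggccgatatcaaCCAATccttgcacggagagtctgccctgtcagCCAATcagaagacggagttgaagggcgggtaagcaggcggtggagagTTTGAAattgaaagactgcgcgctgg
Pttg1: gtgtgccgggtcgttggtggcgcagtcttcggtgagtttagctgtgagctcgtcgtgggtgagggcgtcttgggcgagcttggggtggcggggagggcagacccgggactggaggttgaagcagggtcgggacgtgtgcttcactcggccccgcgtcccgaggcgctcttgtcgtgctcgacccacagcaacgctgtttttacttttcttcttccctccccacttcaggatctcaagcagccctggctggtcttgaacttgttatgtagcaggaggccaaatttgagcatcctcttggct

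The Cdk1 promoter holds 2 CHR elements, which begin 71 and 15 bases before the start, and 3 CCAAT boxes. That of Top2a holds 2 CHR elements and 6 CCAAT boxes, and that of Prc1 a CHR element 5 bases and a CCAAT box 37 bases before the start. The letters marked in capitals were not present in the Birc5 and Pttg1 windows. Birc5 holds 1 unmarked TTTAAA, and Pttg1 none. The Pttg1 window, placed by a RefSeq start, lies wholly within the GENCODE span of that gene (43420250 to 43426251). It therefore does not cover the bases before the GENCODE start, and the lack of motifs there was not examined further. Of the 42 promoters, 31 (73.8%) hold TTTGAA, against 18.1% of all 27025 promoters in the table. CCAAT was found in 73.8% of them, against 37.9% of all promoters, and both together in 61.9%, against 7.12%. The E2F letters were found in 14.3%, against 3.98%, and the related letters TTTAAA in 23.8%, against 13.2%. The median log2 fold change in shG0s2 was 2.09 for the 31 genes with TTTGAA and 2.06 for the 11 without it, and in shRgs16 it was 1.63 and 1.40. These matches describe the letters of the windows.

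**Figure D1:**
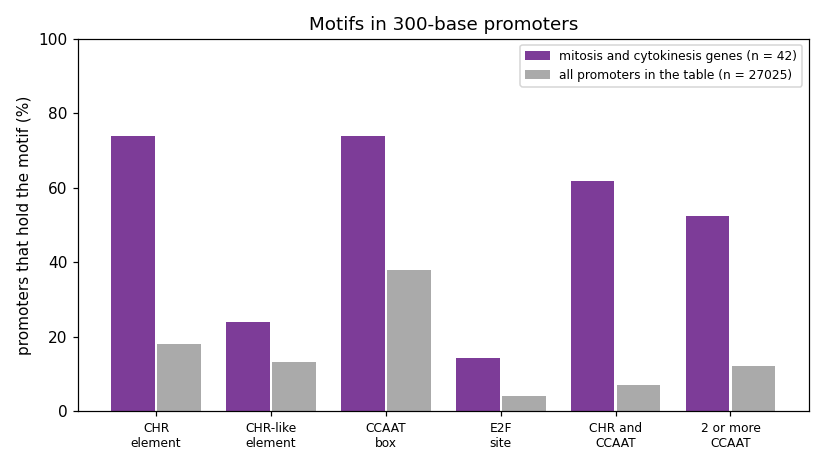
Share of promoters (%, vertical axis) that hold each motif, for the 42 genes of the set with a RefSeq promoter (purple) and for all 27025 promoters (grey). CHR stands for TTTGAA and CHR-like for TTTAAA. Each motif is more frequent in the set, most clearly CHR and CCAAT together, at 61.9% against 7.12%.

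Total counts ranged over 18458222 to 26031003 in shG0s2, 24855297 to 27170419 in shRgs16 and 25636445 to 26472189 in shLacZ. G0s2 averaged 37.2 ± 10.1 CPM in shG0s2 and 73.7 ± 9.80 CPM in shLacZ, a log2 difference of -0.98 (SE 0.198, adjusted p = 0.00301). Rgs16 averaged 26.2 ± 10.9 CPM in shRgs16 and 149 ± 46.3 CPM in shLacZ, a difference of -2.51 (SE 0.378, adjusted p = 0.00172), and in shG0s2 its difference from shLacZ was -1.32 (SE 0.244, adjusted p = 0.00236). Scaled by library size alone, G0s2 differed by -0.48 in shG0s2 (adjusted p = 0.0553). The summed level of 10 hepatocyte markers was 36185 to 57735 CPM in shG0s2, 59406 to 64417 CPM in shRgs16 and 50996 to 64222 CPM in shLacZ, so each sample held the defining transcripts of liver. Levels are CPM, counts relative to library size, scaled by TMM over the 12 samples, a scaling that centres the bulk of genes. Without TMM, the log2 fold change of a gene moves up by a median of 0.49 in shG0s2 and 0.30 in shRgs16 against shLacZ, and by 0.20 between shG0s2 and shRgs16. Changes are given relative to that bulk.

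Nearly the whole set was more abundant in both knockdowns than in shLacZ. In shG0s2, 48 of 50 genes rose, Pttg1 fell and Spc24 did not pass the test, and the median log2 fold change was 2.08. The edgeR test across all genes called 31.3% of 15592 genes higher and 29.2% lower in shG0s2, 60.5% in all. In shRgs16 the counts were the same, 48 higher, 1 lower and 1 not past the threshold, with a median of 1.66, beside 24.6% of 15324 genes called higher, 24.5% lower and 49.1% in all. The median over all genes tested was 0.01 in each comparison. Every shG0s2 sample lay above every shLacZ sample for 48 genes and below for 1, which holds for 28.2% and 27.4% of all genes. Every shRgs16 sample lay above the shLacZ samples for 46 genes and below for 1, beside 22.2% and 22.7% of all genes, while Cdca8, Spc24 and Spc25 overlapped. The rise was by a fold of 2 or more for 46 genes in shG0s2, beside 13.9% of all genes, and for 43 genes in shRgs16, beside 7.05%. It reached a fold of 4 for 30 genes in shG0s2, beside 3.87% of all genes, and for 12 genes in shRgs16, beside 1.06%. In bulk liver RNA, more cells in mitosis and more of these transcripts per cell cannot be told apart. The comparisons share the 4 shLacZ samples.

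**Figure D2:**
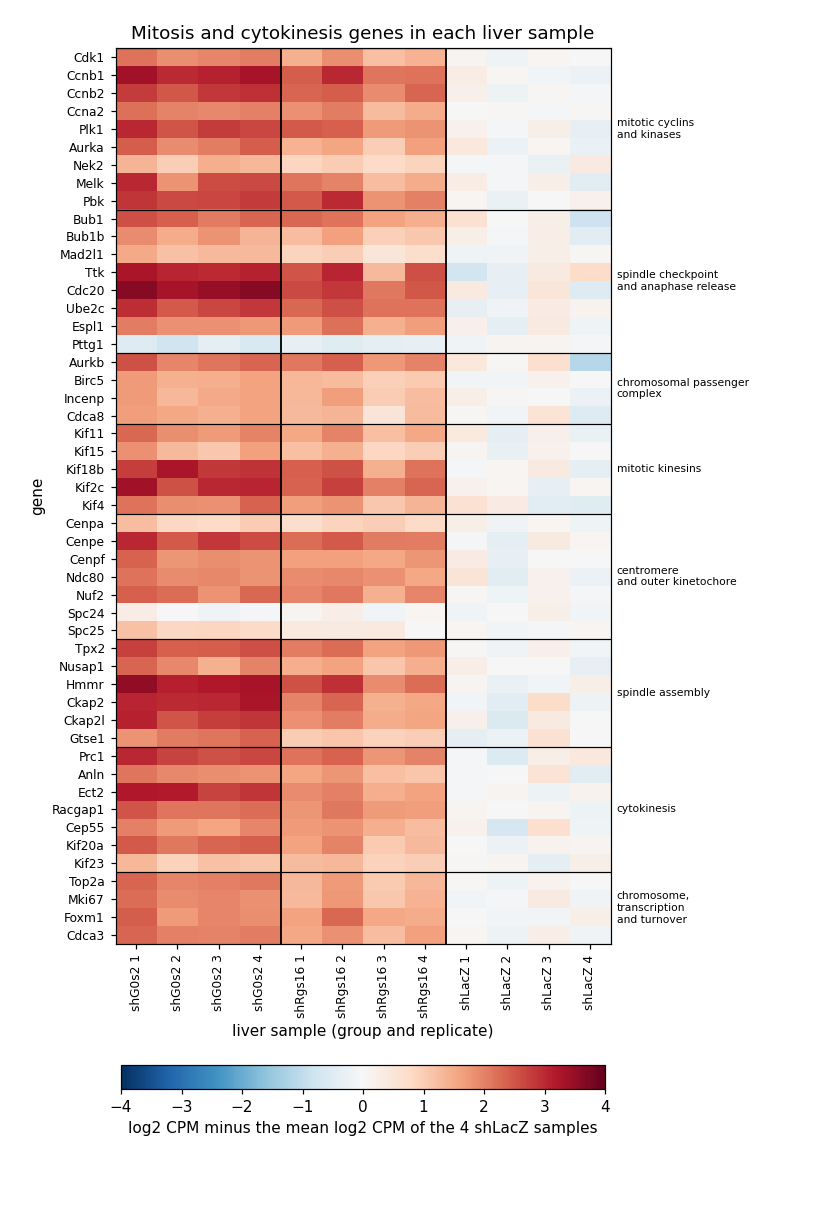
Heat map of the 50 genes (rows, grouped by role) in the 12 samples (columns, shG0s2, shRgs16 and shLacZ, numbered by replicate). Colour is log2 CPM minus the mean log2 CPM of the 4 shLacZ samples, red above and blue below it; most rows are darkest red in shG0s2 and paler in shRgs16, Pttg1 is pale blue in both and Spc24 near white.

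**Figure D3:**
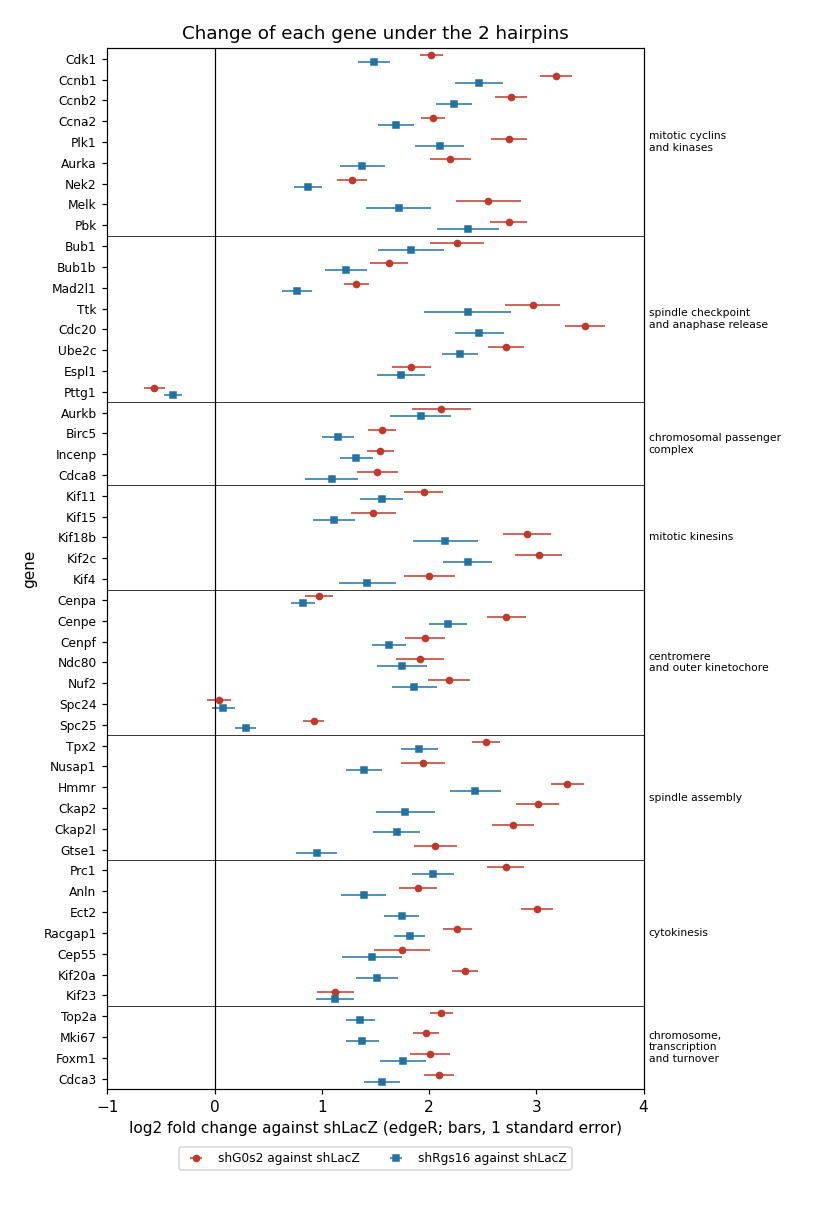
The log2 fold change of each gene against shLacZ (horizontal axis) for shG0s2 (red circles) and shRgs16 (blue squares), with bars of 1 standard error from edgeR. Cdc20 lies farthest right in shG0s2 at 3.46, and Pttg1 lies left of 0 in both; with library size alone Pttg1 is at -0.08 and -0.09 and no longer past the threshold.

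All 9 mitotic cyclins and kinases rose in both knockdowns, with a median log2 fold change of 2.55 in shG0s2 and 1.72 in shRgs16. Values in each sample are given in the order of replicates 1 to 4. Cdk1, the kinase that drives mitotic entry, had 18.9, 15.3, 16.4 and 17.2 CPM in the shG0s2 samples, 11.3, 15.3, 9.63 and 10.98 CPM in the shRgs16 samples, and 4.51, 3.68, 4.42 and 4.19 CPM in the shLacZ samples. The 8 knockdown samples all lay above the 4 shLacZ samples, while shG0s2 and shRgs16 overlapped at shRgs16 replicate 2. Cdk1 rose by 2.02 on the log2 scale in shG0s2 (SE 0.106, adjusted p = 4.20e-08) and by 1.49 in shRgs16 (SE 0.152, adjusted p = 1.35e-05), each relative to shLacZ. The cyclin B2 gene Ccnb2 had 9.88, 7.83, 10.02 and 10.7 CPM in the shG0s2 samples, 7.07, 7.49, 5.21 and 7.04 CPM in the shRgs16 samples, and 1.63, 1.23, 1.46 and 1.37 CPM in the shLacZ samples. No 2 groups overlapped for Ccnb2, with shG0s2 on top. Ccnb2 rose by 2.76 on the log2 scale in shG0s2 (SE 0.152, adjusted p = 5.34e-08) and by 2.23 in shRgs16 (SE 0.170, adjusted p = 1.91e-06), each relative to shLacZ. Ccnb1, the main cyclin partner of Cdk1, averaged 12.6 ± 1.47 CPM in shG0s2, 7.69 ± 2.36 CPM in shRgs16 and 1.39 ± 0.215 CPM in shLacZ (SD, n = 4 each). Ccna2, the cyclin A2 gene, averaged 12.4 ± 1.09 CPM in shG0s2, 9.84 ± 2.35 CPM in shRgs16 and 3.04 ± 0.113 CPM in shLacZ. Plk1, a kinase of centrosome maturation and mitotic entry, averaged 8.09 ± 1.14 CPM in shG0s2, 5.20 ± 1.36 CPM in shRgs16 and 1.21 ± 0.216 CPM in shLacZ. The 2 knockdown groups overlapped for Ccnb1 and Ccna2 and did not for Plk1. Aurka, the kinase of the spindle poles, averaged 7.42 ± 1.33 CPM in shG0s2, 4.24 ± 0.819 CPM in shRgs16 and 1.63 ± 0.378 CPM in shLacZ. Nek2, which separates the centrosomes, averaged 15.7 ± 2.03 CPM in shG0s2, 11.9 ± 0.835 CPM in shRgs16 and 6.50 ± 1.21 CPM in shLacZ, the smallest fold change of these 9 in either knockdown. The cell-cycle-regulated kinase genes Melk and Pbk were by deposited TPM the least abundant of these 9 in shLacZ. Melk averaged 2.70 ± 0.846 CPM in shG0s2, 1.53 ± 0.437 CPM in shRgs16 and 0.461 ± 0.105 CPM in shLacZ, and Pbk averaged 5.02 ± 0.352 CPM in shG0s2, 3.88 ± 1.46 CPM in shRgs16 and 0.751 ± 0.0996 CPM in shLacZ. Both lay above the shLacZ range in each knockdown sample.

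Of the 8 genes of the spindle checkpoint and anaphase release, 7 rose in both knockdowns and Pttg1 was lower. Cdc20 (chromosome 4, 118432901 to 118437352, minus strand, GRCm38), the activator of the anaphase-promoting complex, had the largest fold change of the 50 genes in shG0s2. In shRgs16 it was level with Ccnb1, at 2.47 beside 2.47 on the log2 scale. Cdc20 had 18.3, 14.4, 16.8 and 18.4 CPM in the shG0s2 samples, 9.32, 10.5, 6.38 and 8.35 CPM in the shRgs16 samples, and 1.91, 1.18, 2.08 and 1.04 CPM in the shLacZ samples. The 3 groups did not overlap. Cdc20 rose by 3.46 on the log2 scale in shG0s2 (SE 0.184, adjusted p = 4.72e-08) and by 2.47 in shRgs16 (SE 0.229, adjusted p = 7.51e-06), each relative to shLacZ. Its partner Ube2c, the ubiquitin-conjugating enzyme of that complex, had 13.02, 9.18, 10.6 and 11.97 CPM in the shG0s2 samples, 8.28, 10.002, 7.56 and 7.60 CPM in the shRgs16 samples, and 1.35, 1.51, 2.12 and 1.84 CPM in the shLacZ samples. Both knockdown groups lay above shLacZ and overlapped each other. Ube2c rose by 2.72 on the log2 scale in shG0s2 (SE 0.167, adjusted p = 1.14e-07) and by 2.29 in shRgs16 (SE 0.169, adjusted p = 1.71e-06), each relative to shLacZ. Espl1, the separase that cuts cohesin, averaged 4.67 ± 0.450 CPM in shG0s2, 4.39 ± 1.04 CPM in shRgs16 and 1.31 ± 0.301 CPM in shLacZ (SD, n = 4 each). The checkpoint kinase gene Bub1 averaged 3.42 ± 0.471 CPM in shG0s2, 2.56 ± 0.737 CPM in shRgs16 and 0.714 ± 0.270 CPM in shLacZ. Bub1b, which encodes the checkpoint protein BubR1, averaged 9.07 ± 1.56 CPM in shG0s2, 6.94 ± 1.52 CPM in shRgs16 and 2.96 ± 0.632 CPM in shLacZ. For both genes the knockdown groups overlapped each other, but neither reached down to the shLacZ samples. Mad2l1, the gene of the Cdc20 inhibitor Mad2, averaged 13.7 ± 1.33 CPM in shG0s2, 9.43 ± 1.45 CPM in shRgs16 and 5.52 ± 0.743 CPM in shLacZ. Ttk, the kinase at the top of the checkpoint, averaged 4.07 ± 0.360 CPM in shG0s2, 2.69 ± 1.15 CPM in shRgs16 and 0.519 ± 0.236 CPM in shLacZ.

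Pttg1 (chromosome 11, 43420250 to 43426251, minus strand, GRCm38) encodes securin, the inhibitor of separase that is destroyed at anaphase. It was the most abundant gene of the set in shLacZ by the authors' deposited TPM (34.9 TPM) and the only one called lower. Pttg1 had 11.8, 9.57, 12.6 and 10.9 CPM in the shG0s2 samples, 13.3, 11.8, 12.6 and 13.2 CPM in the shRgs16 samples, and 15.0, 17.8, 17.8 and 16.1 CPM in the shLacZ samples. Every knockdown sample lay below every shLacZ sample, and the 2 knockdown groups overlapped. The log2 fold change of Pttg1 was -0.56 in shG0s2 (SE 0.101, adjusted p = 0.000440) and -0.39 in shRgs16 (SE 0.0848, adjusted p = 0.00249). The call rests on the scaling. With library size alone the values were -0.08 (adjusted p = 0.516) in shG0s2 and -0.09 (adjusted p = 0.435) in shRgs16, and with limma on the log2 of deposited TPM + 0.1 they turned to 0.17 (adjusted p = 0.0896) and 0.02 (adjusted p = 0.848). Deposited TPM were 41.5, 34.6, 41.7 and 39.1 in shG0s2, 36.9, 34.3, 34.25 and 35.4 in shRgs16, and 32.0, 35.9, 37.95 and 33.75 in shLacZ, and these ranges overlap.

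The 4 genes of the chromosomal passenger complex, which corrects faulty attachments and later marks the midzone, rose in both knockdowns. Their median log2 fold change was 1.55 in shG0s2 and 1.23 in shRgs16. Birc5, the gene of survivin, had 8.03, 6.53, 6.76 and 7.53 CPM in the shG0s2 samples, 6.10, 5.93, 4.70 and 5.09 CPM in the shRgs16 samples, and 2.28, 2.27, 2.79 and 2.49 CPM in the shLacZ samples. The 3 groups were separate. Birc5 rose by 1.56 on the log2 scale in shG0s2 (SE 0.134, adjusted p = 1.27e-06) and by 1.15 in shRgs16 (SE 0.149, adjusted p = 7.00e-05), each relative to shLacZ. Incenp, the scaffold of the complex, had 15.1, 11.58, 13.04 and 14.04 CPM in the shG0s2 samples, 11.5, 14.7, 9.32 and 10.9 CPM in the shRgs16 samples, and 5.40, 4.72, 4.51 and 3.91 CPM in the shLacZ samples. Replicate 2 of shRgs16 lay within the shG0s2 range. Incenp rose by 1.55 on the log2 scale in shG0s2 (SE 0.124, adjusted p = 7.35e-07) and by 1.32 in shRgs16 (SE 0.154, adjusted p = 3.23e-05), each relative to shLacZ. The kinase gene Aurkb averaged 5.40 ± 0.979 CPM in shG0s2, 4.77 ± 0.905 CPM in shRgs16 and 1.25 ± 0.545 CPM in shLacZ (SD, n = 4 each). Cdca8, the gene of borealin, averaged 5.97 ± 0.454 CPM in shG0s2, 4.47 ± 1.08 CPM in shRgs16 and 2.09 ± 0.648 CPM in shLacZ, and its lowest shRgs16 sample overlapped shLacZ.

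All 5 mitotic kinesins rose in both knockdowns, by a median of 2.002 in shG0s2 and 1.56 in shRgs16. Kif11, the motor that pushes the spindle poles apart, had 13.3, 9.83, 8.70 and 10.7 CPM in the shG0s2 samples, 7.82, 10.7, 6.26 and 7.84 CPM in the shRgs16 samples, and 3.54, 2.12, 3.14 and 2.26 CPM in the shLacZ samples. The knockdown groups overlapped each other and lay above shLacZ. Kif11 rose by 1.95 on the log2 scale in shG0s2 (SE 0.183, adjusted p = 2.58e-06) and by 1.56 in shRgs16 (SE 0.203, adjusted p = 7.32e-05), each relative to shLacZ. Kif15, which can stand in for Kif11 in spindle assembly, had 5.42, 3.70, 3.19 and 4.73 CPM in the shG0s2 samples, 3.498, 4.11, 2.70 and 3.02 CPM in the shRgs16 samples, and 1.63, 1.23, 1.72 and 1.55 CPM in the shLacZ samples. Its pattern was the same, with every knockdown sample above the control samples. Kif15 rose by 1.48 on the log2 scale in shG0s2 (SE 0.206, adjusted p = 5.86e-05) and by 1.116 in shRgs16 (SE 0.194, adjusted p = 0.000561), each relative to shLacZ. Kif2c, which takes apart microtubule ends at kinetochores, averaged 5.43 ± 1.22 CPM in shG0s2, 3.47 ± 0.719 CPM in shRgs16 and 0.672 ± 0.0961 CPM in shLacZ (SD, n = 4 each). Kif18b, which shortens astral microtubules, averaged 3.76 ± 0.642 CPM in shG0s2, 2.22 ± 0.680 CPM in shRgs16 and 0.495 ± 0.101 CPM in shLacZ. By deposited TPM, Kif18b was the least abundant gene of the set in shLacZ, at 0.152 TPM. Kif4, a chromosome-bound motor that also acts with Prc1 at the midzone, averaged 5.26 ± 0.918 CPM in shG0s2, 3.55 ± 0.800 CPM in shRgs16 and 1.32 ± 0.495 CPM in shLacZ.

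Among 7 centromere and outer kinetochore genes, 6 rose in both knockdowns and Spc24 passed the test in neither, with medians of 1.91 in shG0s2 and 1.63 in shRgs16. The Ndc80 complex, the microtubule-binding arm of the kinetochore, has 4 subunits, and the log2 fold changes of their transcripts ran from 0.05 to 2.19 in shG0s2. Spc25, a subunit at its inner end, had 27.1, 21.6, 21.98 and 20.5 CPM in the shG0s2 samples, 16.0, 15.5, 15.7 and 12.2 CPM in the shRgs16 samples, and 12.7, 11.3, 11.72 and 12.7 CPM in the shLacZ samples. The shG0s2 samples stood above both other groups, and shRgs16 replicate 4 fell among the shLacZ samples. Spc25 rose by 0.92 on the log2 scale in shG0s2 (SE 0.0970, adjusted p = 6.12e-06) and by 0.29 in shRgs16 (SE 0.0996, adjusted p = 0.0293), each relative to shLacZ. In shRgs16 the call was lost with 5 of the 8 samples left out in turn, with an adjusted p between 0.0683 and 0.0880 in those fits (without shLacZ replicate 2 or 3, or shRgs16 replicate 1, 2 or 3). Spc24 (chromosome 9, 21755442 to 21760303, minus strand, GRCm38), the partner of Spc25, had 19.2, 15.4, 14.3 and 15.1 CPM in the shG0s2 samples, 16.9, 18.8, 14.3 and 16.3 CPM in the shRgs16 samples, and 14.1, 15.8, 18.3 and 14.3 CPM in the shLacZ samples. All 3 groups overlapped. Its log2 fold change was 0.05 in shG0s2 (SE 0.113, adjusted p = 0.747) and 0.08 in shRgs16 (SE 0.107, adjusted p = 0.546). This result depended on the scaling too. When scaled by library size alone, Spc24 was higher, by 0.53 (adjusted p = 0.00218) in shG0s2 and 0.38 (adjusted p = 0.0221) in shRgs16, and on deposited TPM limma gave 0.85 (adjusted p = 8.40e-05) and 0.46 (adjusted p = 0.0141). The outer subunits Ndc80 and Nuf2 rose in both knockdowns. Ndc80 averaged 3.04 ± 0.338 CPM in shG0s2, 2.73 ± 0.319 CPM in shRgs16 and 0.807 ± 0.246 CPM in shLacZ (SD, n = 4 each). Nuf2 averaged 4.09 ± 0.678 CPM in shG0s2, 3.29 ± 0.630 CPM in shRgs16 and 0.899 ± 0.0947 CPM in shLacZ. Cenpe, a kinesin that carries chromosomes to the spindle equator, averaged 9.76 ± 1.71 CPM in shG0s2, 6.76 ± 0.903 CPM in shRgs16 and 1.48 ± 0.303 CPM in shLacZ. Cenpa, the histone H3 variant that marks the centromere, averaged 14.9 ± 2.26 CPM in shG0s2, 13.6 ± 1.24 CPM in shRgs16 and 7.65 ± 1.08 CPM in shLacZ, one of the smaller changes. Cenpf, a large kinetochore protein, averaged 7.41 ± 1.58 CPM in shG0s2, 5.94 ± 0.395 CPM in shRgs16 and 1.92 ± 0.353 CPM in shLacZ. On deposited TPM, Cenpf spanned 0.940 to 1.33 in shG0s2, 0.630 to 2.05 in shRgs16 and 0.200 to 1.38 in shLacZ, and limma no longer called it, at 0.98 (adjusted p = 0.0816) in shG0s2 and 0.83 (adjusted p = 0.207) in shRgs16.

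The 6 spindle assembly genes had the largest median of the 8 role groups in shG0s2, 2.66, beside 1.74 in shRgs16, and all 6 rose in both. Ckap2, a microtubule-stabilising protein, had 14.2, 13.7, 13.9 and 16.6 CPM in the shG0s2 samples, 6.82, 8.58, 4.58 and 5.01 CPM in the shRgs16 samples, and 1.58, 1.27, 2.87 and 1.51 CPM in the shLacZ samples. The 3 groups were separate. Ckap2 rose by 3.01 on the log2 scale in shG0s2 (SE 0.198, adjusted p = 2.33e-07) and by 1.78 in shRgs16 (SE 0.277, adjusted p = 0.000346), each relative to shLacZ. Its relative Ckap2l had 10.2, 6.92, 8.29 and 8.69 CPM in the shG0s2 samples, 4.25, 4.95, 3.41 and 3.62 CPM in the shRgs16 samples, and 1.40, 0.802, 1.55 and 1.22 CPM in the shLacZ samples. Again each shG0s2 sample exceeded each shRgs16 sample. Ckap2l rose by 2.78 on the log2 scale in shG0s2 (SE 0.194, adjusted p = 2.80e-07) and by 1.70 in shRgs16 (SE 0.217, adjusted p = 6.23e-05), each relative to shLacZ. Gtse1, a microtubule-tip protein that restrains Kif2c, had 10.8, 13.1, 13.8 and 16.2 CPM in the shG0s2 samples, 6.28, 6.73, 5.99 and 6.25 CPM in the shRgs16 samples, and 2.42, 2.64, 4.77 and 3.15 CPM in the shLacZ samples. The shRgs16 samples lay close together, and shG0s2 replicate 1, the highest of its group for most genes, was here the lowest. Gtse1 rose by 2.06 on the log2 scale in shG0s2 (SE 0.200, adjusted p = 5.60e-06) and by 0.95 in shRgs16 (SE 0.1899, adjusted p = 0.00143), each relative to shLacZ. Hmmr, a spindle-pole adaptor, averaged 12.1 ± 1.63 CPM in shG0s2, 6.76 ± 2.05 CPM in shRgs16 and 1.25 ± 0.1902 CPM in shLacZ (SD, n = 4 each), the second largest fold change in shG0s2 after Cdc20. Tpx2, which activates Aurka on the spindle, averaged 12.4 ± 1.36 CPM in shG0s2, 8.12 ± 1.62 CPM in shRgs16 and 2.16 ± 0.251 CPM in shLacZ. Nusap1, which bundles microtubules near chromosomes, averaged 8.22 ± 2.10 CPM in shG0s2, 5.67 ± 0.770 CPM in shRgs16 and 2.15 ± 0.354 CPM in shLacZ.

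The 7 cytokinesis genes rose in both knockdowns, with a median of 2.26 in shG0s2 and 1.51 in shRgs16. Ect2 (chromosome 3, 27097222 to 27153878, minus strand, GRCm38), the exchange factor that turns on RhoA at the cleavage site, had 19.9, 19.6, 13.97 and 15.7 CPM in the shG0s2 samples, 7.92, 8.66, 5.91 and 6.64 CPM in the shRgs16 samples, and 2.09, 2.31, 1.86 and 2.40 CPM in the shLacZ samples. Every shG0s2 sample was above every shRgs16 sample, and those above shLacZ. Ect2 rose by 3.01 on the log2 scale in shG0s2 (SE 0.149, adjusted p = 2.87e-08) and by 1.75 in shRgs16 (SE 0.163, adjusted p = 7.22e-06), each relative to shLacZ. Prc1, which bundles the microtubules of the midzone, had 21.4, 17.3, 15.4 and 16.7 CPM in the shG0s2 samples, 11.96, 13.3, 8.85 and 10.5 CPM in the shRgs16 samples, and 2.47, 1.79, 3.09 and 3.48 CPM in the shLacZ samples. The groups did not overlap. Prc1 rose by 2.71 on the log2 scale in shG0s2 (SE 0.176, adjusted p = 2.15e-07) and by 2.04 in shRgs16 (SE 0.195, adjusted p = 9.27e-06), each relative to shLacZ. Kif23, the motor subunit of centralspindlin, had 5.26, 3.96, 4.75 and 4.51 CPM in the shG0s2 samples, 5.10, 5.31, 4.03 and 4.18 CPM in the shRgs16 samples, and 2.19, 2.27, 1.59 and 2.49 CPM in the shLacZ samples. Here the knockdown groups overlapped almost fully, both above shLacZ. Kif23 rose by 1.13 on the log2 scale in shG0s2 (SE 0.171, adjusted p = 0.000116) and by 1.124 in shRgs16 (SE 0.178, adjusted p = 0.000288), each relative to shLacZ. Racgap1, the other subunit of centralspindlin and the anchor of Ect2, averaged 11.2 ± 1.53 CPM in shG0s2, 8.29 ± 1.16 CPM in shRgs16 and 2.34 ± 0.233 CPM in shLacZ (SD, n = 4 each). Its log2 fold change in shG0s2 was 2.26 (SE 0.136), beside 1.13 for Kif23. Anln, the anillin scaffold of the contractile ring, averaged 9.21 ± 0.986 CPM in shG0s2, 6.52 ± 1.36 CPM in shRgs16 and 2.48 ± 0.721 CPM in shLacZ. Kif20a, which brings the passenger complex to the midzone, averaged 15.1 ± 1.55 CPM in shG0s2, 8.62 ± 2.46 CPM in shRgs16 and 3.01 ± 0.325 CPM in shLacZ. Cep55, which recruits the abscission machinery to the midbody, averaged 2.66 ± 0.377 CPM in shG0s2, 2.21 ± 0.390 CPM in shRgs16 and 0.791 ± 0.307 CPM in shLacZ.

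The remaining 4 genes act on chromosome structure, transcription and protein turnover, and all rose in both knockdowns, by medians of 2.05 in shG0s2 and 1.47 in shRgs16. Top2a, the topoisomerase that untangles sister chromatids, had 32.7, 25.4, 26.5 and 28.2 CPM in the shG0s2 samples, 16.4, 21.02, 13.5 and 16.3 CPM in the shRgs16 samples, and 6.75, 5.66, 7.25 and 6.54 CPM in the shLacZ samples. The 3 groups stood apart. Top2a rose by 2.12 on the log2 scale in shG0s2 (SE 0.104, adjusted p = 2.78e-08) and by 1.36 in shRgs16 (SE 0.136, adjusted p = 1.18e-05), each relative to shLacZ. Cdca3, an F-box-like protein tied to mitotic entry, had 12.2, 9.75, 9.47 and 9.97 CPM in the shG0s2 samples, 6.995, 8.58, 5.64 and 7.56 CPM in the shRgs16 samples, and 2.56, 2.08, 2.92 and 2.17 CPM in the shLacZ samples. Its groups did not overlap either. Cdca3 rose by 2.09 on the log2 scale in shG0s2 (SE 0.143, adjusted p = 2.42e-07) and by 1.56 in shRgs16 (SE 0.169, adjusted p = 1.97e-05), each relative to shLacZ. Mki67, the gene of the proliferation marker Ki-67, which coats mitotic chromosomes, averaged 40.2 ± 5.26 CPM in shG0s2, 26.9 ± 5.18 CPM in shRgs16 and 10.3 ± 1.78 CPM in shLacZ (SD, n = 4 each). Foxm1, the transcription factor that acts with B-Myb on G2 and mitosis genes, averaged 6.38 ± 1.43 CPM in shG0s2, 5.40 ± 1.57 CPM in shRgs16 and 1.60 ± 0.199 CPM in shLacZ.

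**Figure D4:**
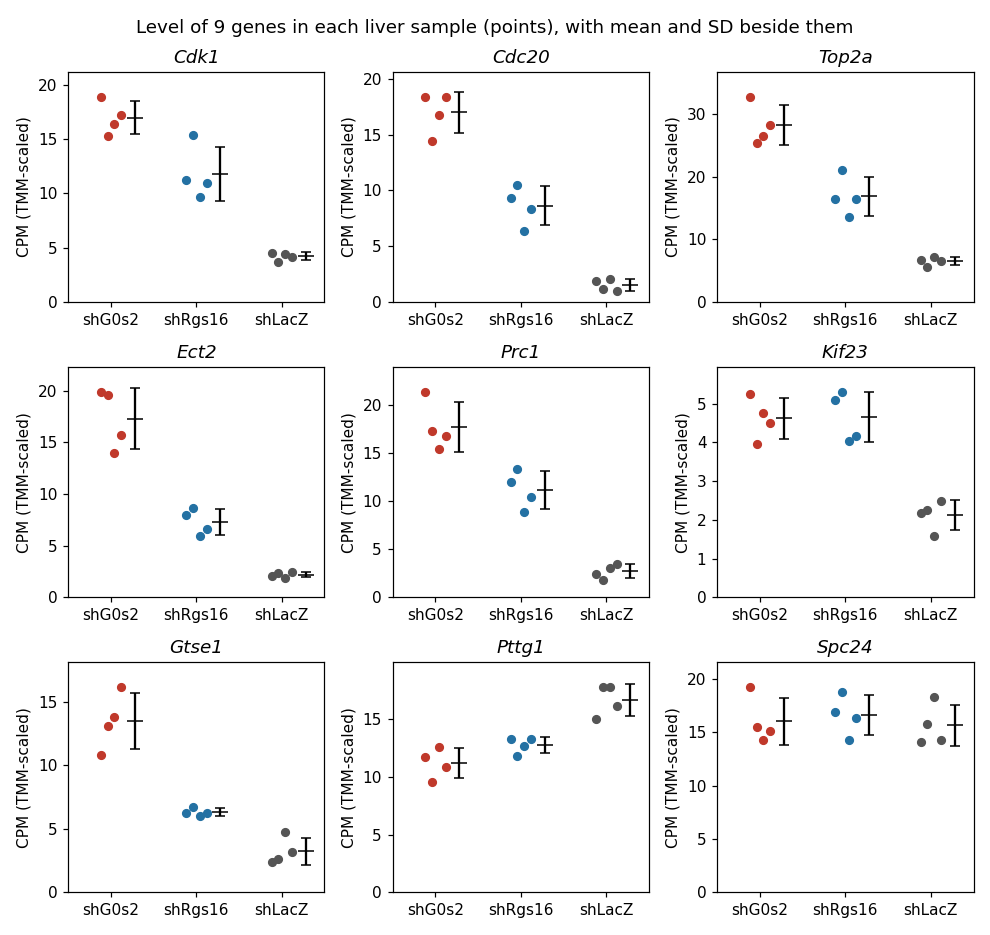
CPM (vertical axes, each starting at 0) of 9 genes in the 4 samples of shG0s2 (red), shRgs16 (blue) and shLacZ (grey), with the mean and SD beside the points. Cdk1, Cdc20, Top2a, Ect2, Prc1 and Gtse1 step down over the 3 groups by mean, Kif23 is level in both knockdowns, Pttg1 is highest in shLacZ (a direction lost without TMM scaling), and the Spc24 groups overlap.

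Set directly against each other, shG0s2 had the higher level for 30 of the 50 genes, with 0 lower and 20 not past the threshold, in the edgeR fit of all 12 samples. At an unadjusted p under 0.05 edgeR counted 35 higher and 0 lower, and DESeq2 and limma-voom, adjusted, gave 30 and 32 higher and 0 lower. Shares over all genes for these alternatives are not given here. The adjusted edgeR test called 21% of 16018 genes higher and 20.5% lower, 41.5% in all. The median difference was 0.52, against 0.01 over all genes tested. Every shG0s2 sample exceeded every shRgs16 sample for 23 genes, beside 20.4% of all genes, and for 0 genes did every shG0s2 sample lie below, beside 19.4%. By mean, 47 genes ran in the order shG0s2, shRgs16, shLacZ, and the share of all genes in that order was not counted. The difference reached a fold of 2 for 4 genes, Ect2, Ckap2, Gtse1 and Ckap2l, beside 4.68% of all genes. It was 1.25 (SE 0.139, adjusted p = 5.40e-06) for Ect2 and 1.22 (SE 0.205, adjusted p = 0.000303) for Ckap2. For Gtse1 it was 1.09 (SE 0.164, adjusted p = 7.73e-05) and for Ckap2l 1.07 (SE 0.168, adjusted p = 0.000120). All 6 spindle assembly genes passed, with a median of 0.96, as did 7 of 9 cyclins and kinases and 5 of 7 cytokinesis genes. Of the passenger complex 1 of 4 passed, and of the centromere and kinetochore genes 2 of 7, Cenpe and Spc25, with medians of 0.31 and 0.31. At the other end, Kif23 differed by -0.01 (SE 0.152, adjusted p = 0.965), Espl1 by 0.09 (SE 0.175, adjusted p = 0.718) and Pttg1 by -0.18 (SE 0.0939, adjusted p = 0.133). Cdk1 differed by 0.52 (SE 0.124, adjusted p = 0.00328), Cdc20 by 0.98 (SE 0.164, adjusted p = 0.000234) and Top2a by 0.75 (SE 0.118, adjusted p = 0.000133). The count of 30 moved between 24 and 37 as single samples were left out, and genes near the threshold changed sides. It was 24 without shG0s2 replicate 1 and without shRgs16 replicate 3, and 37 without shRgs16 replicate 2. Under library size alone 42 genes passed, beside 37.8% of all genes called higher.

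Single samples differed in how far the set as a whole moved. Against the shLacZ mean, the median log2 level of the 50 genes was 2.31, 1.89, 1.94 and 2.14 in shG0s2, 1.60, 1.903, 1.22 and 1.46 in shRgs16, and 0.08, -0.13, 0.18 and -0.09 in shLacZ. The shRgs16 maximum thus exceeded the shG0s2 minimum by a small margin. Replicate 1 was the highest shG0s2 sample for 42 of the 50 genes. In shRgs16, replicate 2 was the highest for 41 genes and replicate 3 the lowest for 40. No such sample stood out in shLacZ, where replicate 3 was the highest for 25 genes and replicate 1 for 15. Of the 12 samples, shG0s2 replicate 1 held the maximum for 39 genes. These counts were made on the set alone, and the shares over all genes were not counted.

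These transcripts were scarce in control liver. By the authors' deposited TPM, a per-length unit, the median level of the 50 genes was 6.66 in shG0s2, 3.44 in shRgs16 and 0.949 in shLacZ, and 0, 2 and 30 genes were below 1 TPM in those groups. TPM is a relative unit and was not scaled by TMM. On TPM the log2 fold change of a gene against shLacZ moves up by a median of 0.69 in shG0s2 and 0.43 in shRgs16. Cdk1 was the most abundant in shG0s2 at 45.0 TPM, and Pttg1 in shRgs16 at 35.2 TPM. The lowest single count was 36 in shG0s2, 27 in shRgs16 and 6 in shLacZ, and no gene was at 0 in any sample. Genes with higher control levels had smaller fold changes by median, though the ranges overlapped. For the 10 genes with the highest shLacZ TPM the median log2 fold change was 1.204 in shG0s2 and 0.85 in shRgs16, and for the other 40 it was 2.19 and 1.74. The 10 genes ranged from -0.56 to 2.72 in shG0s2 and from -0.39 to 2.29 in shRgs16. The other 40 ranged from 1.48 to 3.46 in shG0s2 and from 0.95 to 2.47 in shRgs16. The shLacZ samples enter both the level and the fold change, and this is a description with no test. The 4 genes with the highest shLacZ TPM were Pttg1, Spc24, Spc25 and Cenpa.

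**Figure D5:**
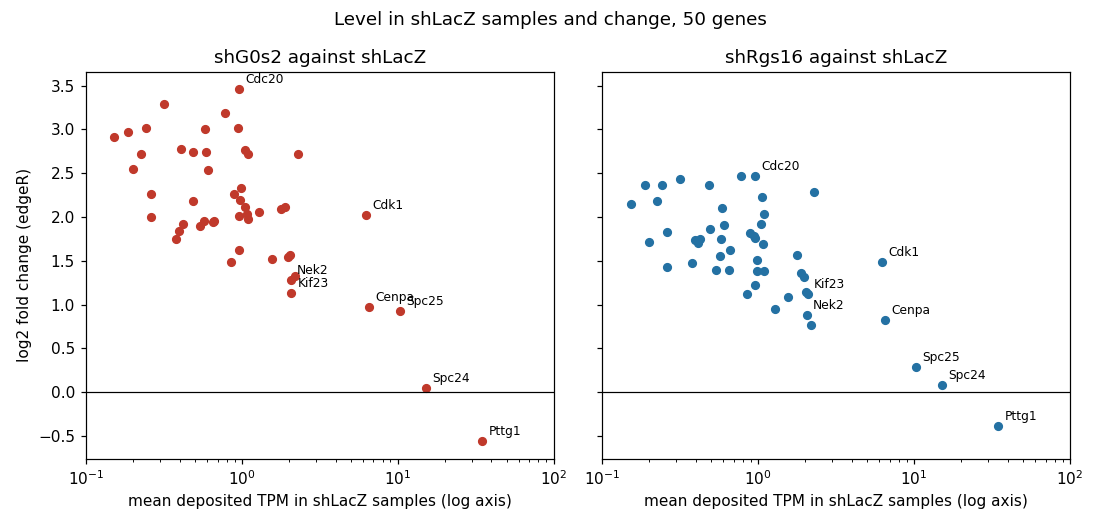
The log2 fold change from edgeR (vertical axis) against mean deposited TPM in shLacZ (horizontal log axis) for the 50 genes, with shG0s2 against shLacZ on the left and shRgs16 against shLacZ on the right. The genes with the highest control levels, Pttg1 at 34.9 TPM, Spc24 and Spc25, lie lowest; without TMM scaling the Pttg1 points lie at -0.08 and -0.09 and the Spc24 points at 0.53 and 0.38.

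Other genes of the same processes, taken from 7 lists made by function with earlier results of these data known, were examined beside the set. Of 8 condensin genes, which compact chromosomes, 7 rose in shG0s2 and 6 in shRgs16. Over all genes tested, 31.3% were called higher in shG0s2 and 24.6% in shRgs16. The condensin subunit gene Ncapg2 averaged 15.1 ± 1.25 CPM in shG0s2 and 4.045 ± 0.496 CPM in shLacZ (SD, n = 4 each), and Smc2 16.1 ± 1.56 CPM in shG0s2 and 4.46 ± 0.954 CPM in shLacZ. Smc4 averaged 42.1 ± 2.69 CPM in shG0s2 and 22.4 ± 1.39 CPM in shLacZ. Of 31 further kinetochore genes, 26 rose in shG0s2, and of the 30 tested in shRgs16, 20 rose and 3 were lower, Mis12, Zwint and Hjurp. Kntc1 and Zwilch, of the complex that brings dynein to kinetochores, had log2 fold changes of 2.73 (SE 0.181, adjusted p = 2.01e-07) and 2.41 (SE 0.187, adjusted p = 5.92e-07) in shG0s2. Cenpi, of the inner kinetochore, had 2.42 (SE 0.213, adjusted p = 1.56e-06). Of 17 genes of the anaphase-promoting complex and its regulators, 9 rose and 1 was lower in shG0s2, with a median of 0.23, and 3 rose and 1 was lower in shRgs16, a smaller share than the 24.6% over all genes. Anapc4 rose by 1.03 (SE 0.101, adjusted p = 3.57e-06) and Anapc5 by 0.44 (SE 0.0581, adjusted p = 3.87e-05) in shG0s2. Anapc13 averaged 16.9 ± 0.568 CPM in shG0s2 and 27.4 ± 1.84 CPM in shLacZ and its log2 fold change was -0.69 (SE 0.0705, adjusted p = 5.06e-06).

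Of 13 regulators of mitotic entry, 9 rose in shG0s2 and 7 in shRgs16, where Arpp19 was lower. Cdkn3, a phosphatase that acts on cyclin-dependent kinases, averaged 3.04 ± 0.387 CPM in shG0s2 and 0.231 ± 0.162 CPM in shLacZ (SD, n = 4 each). Mastl, which restrains the phosphatase PP2A, averaged 4.08 ± 0.383 CPM in shG0s2 and 1.57 ± 0.134 CPM in shLacZ. Cdc25a, the phosphatase that activates cyclin-dependent kinases, averaged 11.8 ± 1.54 CPM in shG0s2 and 5.47 ± 1.21 CPM in shLacZ. Among 19 transcription regulators of the G2 and mitosis programme, 10 rose and 2 were lower in shG0s2, and 6 rose and 3 were lower in shRgs16. Called in either direction, these shares were near those over all genes, 60.5% in shG0s2 and 49.1% in shRgs16. In shG0s2 the share higher was above the 31.3% over all genes and the share lower was under the 29.2%. Rbl1, the gene of p107, rose by 1.80 (SE 0.109, adjusted p = 1.04e-07) in shG0s2, E2f1 by 1.27 (SE 0.0959, adjusted p = 4.91e-07) and E2f7 by 2.16 (SE 0.239, adjusted p = 9.21e-06). Rbl2, the gene of the DREAM subunit p130, had -0.64 (SE 0.0845, adjusted p = 3.67e-05), and Lin52, a further subunit, had -0.33 (SE 0.0878, adjusted p = 0.00628). Of 21 genes of the contractile ring and of abscission, 12 rose and 6 were lower in shG0s2, and 10 rose and 3 were lower in shRgs16. The kinesin gene Kif20b rose by 2.11 (SE 0.158, adjusted p = 4.54e-07) in shG0s2. Myh9, the non-muscle myosin heavy chain, averaged 447 ± 28.7 CPM in shG0s2 and 243 ± 9.51 CPM in shLacZ, and the septin gene Sept11 28.8 ± 1.51 CPM in shG0s2 and 15.2 ± 1.38 CPM in shLacZ. The 6 lower genes in shG0s2 were Chmp2a, Vps4a, Tsg101, Spast, Zfyve19 and Zfyve26, of the membrane-cutting machinery and its regulators, with log2 fold changes between -0.38 and -0.25. The share of the 21 genes called lower was near the 29.2% over all genes in shG0s2 and under the 24.5% over all genes in shRgs16. Of 14 centrosome genes, 9 rose and 1, Cep152, was lower in shG0s2, and 7 rose in shRgs16. Cep192 averaged 17.4 ± 0.768 CPM in shG0s2 and 6.54 ± 0.581 CPM in shLacZ, Tacc3 10.7 ± 1.39 CPM in shG0s2 and 3.67 ± 0.481 CPM in shLacZ and Cdk5rap2 14.03 ± 1.02 CPM in shG0s2 and 6.49 ± 0.643 CPM in shLacZ. Scaling by library size alone called higher in shG0s2 8 of 8 condensin, 31 of 31 kinetochore, 16 of 17 anaphase-promoting complex, 13 of 13 mitotic entry, 16 of 19 transcription, 19 of 21 ring and abscission and 13 of 14 centrosome genes, beside 64.6% of all genes. In shRgs16 it called higher 8 of 8, 25 of 30, 14 of 17, 10 of 13, 13 of 19, 18 of 21 and 9 of 14 genes of these lists, taken in the same order, beside 50.2% of all genes. None of the genes of these lists that were lower in shG0s2 or shRgs16 was called lower against shLacZ with library size alone, and Chmp2a, Vps4a, Tsg101 and Spast were then called higher in shG0s2.

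Markers of hepatocytes and of other cell types found in liver were measured in the same samples. Over all genes tested, 31.3% were called higher and 29.2% lower in shG0s2, and 24.6% higher and 24.5% lower in shRgs16. Of 10 T and NK cell markers, 8 were higher in shG0s2 and 9 in shRgs16, and their summed level was 42.3 to 49.1 CPM in shG0s2, 37.2 to 52.4 CPM in shRgs16 and 9.86 to 28.7 CPM in shLacZ. Cd3e, a subunit of the T cell receptor complex, averaged 4.37 ± 0.594 CPM in shG0s2 and 1.53 ± 0.555 CPM in shLacZ (SD, n = 4 each). Of 10 Kupffer cell and macrophage markers 9 were higher in shG0s2, and of the 9 tested in shRgs16, 8 were, with summed levels of 959.9 to 1104 CPM in shG0s2, 908 to 1044 CPM in shRgs16 and 643 to 716 CPM in shLacZ. All 10 stellate cell and fibroblast markers were higher in shG0s2, and 4 were higher and 2 lower in shRgs16, with sums of 636 to 817 CPM in shG0s2, 329.7 to 463 CPM in shRgs16 and 275 to 314 CPM in shLacZ. Between shG0s2 and shRgs16, 7 of the 10 stellate cell markers were higher and 3 did not pass, while 1 of the T and NK cell markers was lower and 9 did not pass. In that comparison 21% of all genes were called higher and 20.5% lower. Of 10 hepatocyte markers, 9 were lower in shG0s2, and 6 were lower and 2 higher in shRgs16. Of 7 B and plasma cell markers, 1 was higher in shG0s2 and 2 in shRgs16, with sums of 15.7 to 24.6 CPM in shG0s2, 21.1 to 22.8 CPM in shRgs16 and 13.03 to 25.5 CPM in shLacZ. Of the 6 neutrophil markers tested, none passed in either knockdown with TMM scaling, with a lowest unadjusted p from edgeR of 0.120 in shG0s2 and 0.0717 in shRgs16. Of the erythroid markers, 4 were higher and 2 lower in shG0s2 and 2 were lower in shRgs16. Among 10 sinusoidal endothelial markers, 1 was higher and 2 lower in shG0s2 and 3 were higher in shRgs16, and 2 of 6 cholangiocyte markers were higher in each knockdown. These counts depended on the scaling, as did the shares over all genes. Limma on deposited TPM called 11638 of 15592 genes higher in shG0s2 and 8883 of 15324 in shRgs16. Library size alone called 64.6% of all genes higher in shG0s2 and 50.2% in shRgs16. It called 1246 of 15592 genes lower in shG0s2 and 1279 of 15324 in shRgs16. By library size alone, 1 hepatocyte marker was higher and 6 lower in shG0s2, and 4 were higher and 2 lower in shRgs16. The T and NK cell markers higher were then 9 in shG0s2 and 10 in shRgs16, those of Kupffer cells and macrophages 10 in shG0s2 and 9 in shRgs16, and those of B and plasma cells 3 in shG0s2 and 4 in shRgs16. Of the stellate cell and fibroblast markers 10 were higher in shG0s2, and 7 were higher and 1 lower in shRgs16. Of the neutrophil markers 3 were higher in shG0s2 and 1 in shRgs16 (5 and 1 with limma on deposited TPM), and of the sinusoidal endothelial markers 7 in shG0s2 and 9 in shRgs16. Of the cholangiocyte markers 5 were higher in shG0s2 and 3 in shRgs16, and of the erythroid markers 4 were higher and 2 lower in shG0s2, and 2 higher and 2 lower in shRgs16. None of the markers of these lists was at 0 in every sample. The part of these cells in the levels of the mitosis and cytokinesis genes was not tested.

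Some of these genes share exonic bases with a gene on the opposite strand, and the strand setting of the counting is not given in the sources used here, so reads from the shared part cannot be assigned with certainty. The overlap with Cdc23 covers 29.3% of the exonic bases of Kif20a, that with Tnnc2 22.8% of Ube2c, that with Pdzd11 15.1% of Kif4, that with Exosc9 12.5% of Ccna2 and that with Rccd1 11.1% of Prc1. Cdc23 itself, a subunit of the anaphase-promoting complex, averaged 17.9 ± 0.807 CPM in shG0s2 and 17.4 ± 1.69 CPM in shLacZ (SD, n = 4 each) and was not called in that comparison (SE 0.0822, adjusted p = 0.662). Over all 12 samples, with shRgs16 included, Cdc23 averaged 18.65 CPM. Its change in shRgs16 and the changes of Tnnc2, Pdzd11, Exosc9 and Rccd1 are not given here. The part of overlapping reads in the changes of these genes was not tested. Pseudogene copies of at least 95% identity over at least 200 bases exist for Ccnb1, Cdc20, Mad2l1, Mki67, Ndc80, Pbk and Racgap1, and their mean levels were at most 0.00725 CPM except for 2700099C18Rik, a copy of part of Ndc80, at 1.06 CPM. In the authors' deposited table of each knockdown, 48 of the 50 genes were higher and 1 was lower at an adjusted p below 0.05, with a median log2 fold change of 2.07 for shG0s2 and 1.66 for shRgs16.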

How the data were processed

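Ribosomal RNA-depleted total RNA of 12 liver samples was sequenced (4 for each of 3 hairpins, grouped by sample title). Per the file headers, the authors deposited TPM and estimated counts for each gene, and for each comparison a p-value, raw and adjusted, and the fold change both as a ratio and in log2. DESeq2, SAMtools 1.9, GATK 3.8, Bowtie2 2.2.9 and fastp 0.19.5 appear in the submitters' processing notes. Not given in the sources used here are the genome build, the annotation, the counting program and the strand setting. Estimated counts divide reads shared by similar genes with a model.

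Both deposited tables hold the same shLacZ values (0 differences in 8 columns) and were joined. Of 55536 gene identifiers, 55450 matched GENCODE M21 (GRCm38), the source of coordinates. Counts were rounded to whole numbers, filtered with filterByExpr, scaled by TMM and tested over all genes in edgeR 4.0.16 under R 4.3.3 (robust quasi-likelihood F test, two-sided), with Benjamini-Hochberg adjustment at a false discovery rate of 0.05. Each knockdown was compared with shLacZ in its 8 samples, and shG0s2 with shRgs16 in a model of all 12. Adjusted p-values are edgeR's unless another tool is named. The standard error of a log2 fold change is its size divided by the square root of F. The fits were tested on simulated counts. The members, role groups, pathway and marker lists and named genes were chosen with earlier results of these data known. Values in each sample are given for the 2 members of each role group with the highest deposited TPM, the members with the largest and smallest fold changes, those not past the threshold, and the 4 with the smallest p between the knockdowns. Group means or fold changes are given, of each pathway list, for the 3 genes with the smallest p in shG0s2. Genes lower where most are higher are in part named, with or without values, and otherwise only counted. Chi-square per degree of freedom between samples of one group was 12.1 to 47.3, so none was counted as a repeat of another. Alternatives used DESeq2 1.42.0, limma 3.58.1 (voom, and log2 of TPM + 0.1), other scalings and filters, a replicate block, other sample sets and each sample left out. Copies were searched with BLAST 2.17.0.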

Additional observations from a re-analysis of the deposited data

Results flagged for a closer look

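A total of 5 values stood apart from the other 3 samples of their group by Dixon's test at the 95% level, out of 162 tests. The tests took each group for the genes of the set, G0s2, Rgs16, the library total and the median of the set. Chance alone sets apart about 1 in 20 groups. Cdca8 had 2.86 CPM in shRgs16 replicate 3, where the others had 4.89 to 5.20 CPM. Cenpf had 9.77 CPM in shG0s2 replicate 1, beside 6.44 to 6.80 CPM in the others. Spc25 had 12.2 CPM in shRgs16 replicate 4, beside 15.5 to 16.0 CPM. Mki67 had 12.95 CPM in shLacZ replicate 3, beside 9.18 to 9.68 CPM. Foxm1 had 7.75 CPM in shRgs16 replicate 2, beside 4.42 to 4.82 CPM.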

How the results depend on the processing

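The scaling mattered most. With library size alone the genes of the set called lower were 0 in shG0s2 and 0 in shRgs16 against shLacZ, and 0 and 0 with limma on log2 of deposited TPM + 0.1. The median log2 fold change of the set was 2.56 in shG0s2, 1.96 in shRgs16 and 0.71 between them with library size alone, and 2.67 in shG0s2 and 0.81 between them on TPM. Over all genes in shG0s2 against shLacZ, 4875 were higher and 4556 lower with TMM (51.7% of calls higher), 10067 and 1246 with library size alone (89.0%), and 11638 and 726 on TPM. For shRgs16 against shLacZ the counts were 3770 and 3749 (50.1%), 7686 and 1279 (85.7%), and 8883 and 762. For shG0s2 against shRgs16 they were 3359 and 3281 (50.6%), 6054 and 1568 (79.4%), and 6474 and 1144. On TPM, Pttg1 turned to 0.17 in shG0s2 and 0.016 in shRgs16, and Spc24 between the knockdowns to 0.39 (adjusted p = 0.0225); the cause was not tested. With single samples left out, the set had 48 higher and 1 lower in each shG0s2 fit against shLacZ, 47 to 48 higher and 1 lower for shRgs16, and 24 to 37 higher and 0 lower between the knockdowns. There, Nek2, Melk, Ube2c, Birc5, Kif4, Nusap1 and Anln lost the call in some of these fits, and Ccna2, Pbk, Bub1b, Ttk, Incenp, Kif11 and Foxm1 gained it without shRgs16 replicate 2. Low counts limit the shLacZ values, with a minimum of 6 reads.

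Replicate numbers did not pair the samples: same-numbered samples of 2 groups had correlations between -0.07 and 0.14 of their deviations from the group means. With a replicate block the set had 48 higher in shG0s2, 47 in shRgs16 (Spc25 lost, adjusted p = 0.0543) and 31 between the knockdowns.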
